A study of Mus musculus with 6 samples.

Results

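Guanylate-binding proteins and immunity-related GTPases are enzymes that cells make after exposure to interferon-gamma, and together with Ido1 and Cd274 they form the set of 10 genes described here. The set was defined by gene symbol (Gbp2, Gbp3, Gbp6, Gbp7, Igtp, Irgm1, Irgm2, Iigp1, Ido1 and Cd274) and held 14 of the 45101 probe sets of the array, 10 genes of the 12437 tested. The genes had been picked with the comparison of these same arrays in view, so their differences between the groups are given as a description, with no test. Untreated C57BL/6 mice gave RNA of the colonic mucosa, which was read on 3' arrays of Affymetrix. Of these, 3 are labelled p38a-knockout (KO A, KO B and KO C) and 3 wildtype (WT A, WT B and WT C). Mapk14 encodes p38a, a kinase that cells switch on under stress. The sources used here do not give age, sex, the driver of any Cre recombinase or the deleted part of Mapk14. Whether each array stands for an animal of its own is not stated either, and the spread within a group may therefore be technical.

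Interferon-gamma is released mainly by T cells and natural killer cells. It binds the receptor made of Ifngr1 and Ifngr2, which signals through the kinases Jak1 and Jak2 to gamma-activated sites in target promoters. One target is Irf1, a transcription factor that carries the signal on through a second kind of promoter element. In mouse cells the GTPases among the targets attack the vacuoles in which intracellular parasites and bacteria live. Ido1 degrades tryptophan, and Cd274 (PD-L1) is a surface ligand that restrains T cells. In the colon, epithelial cells as well as macrophages can express these genes.

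The comparison asks which transcripts differ between colonic mucosa labelled p38a knockout and wild type. The target Mapk14 read no lower in those labelled knockout on its brightest probe set. The brightest Mapk14 probe set gave 9.72, 9.91 and 9.73 in KO A, KO B and KO C and 9.31, 9.44 and 9.37 in WT A, WT B and WT C, on the scale of log2(signal + 16) after quantile normalization that is used throughout unless stated. The difference of 0.41 was not called (limma adjusted p = 0.902, exact two-sided permutation p = 0.1, the smallest that 3 against 3 arrays allow). The other Mapk14 probe sets gave 0.62, 0.34, 0.29, 0.17 and -0.0645, each with overlapping groups. The target therefore gave no support to the label, which it cannot check while the deleted part is unknown, and "KO-labelled" is written throughout. A probe set outside the deleted part would check nothing. The 2% trimmed mean of the deposited signals ran from 192 to 222 in the KO-labelled arrays and from 117 to 188 in wild type. The 3' to 5' ratio of the Gapdh control, which goes up as RNA degrades, was 0.859 to 0.954 in the KO-labelled arrays and 0.989 to 1.45 in wild type. These ranges are separate, so fits with this ratio cannot tell its part from that of the label. The ratio of the Actb control overlapped, at 1.82 to 2.27 in the KO-labelled arrays and 2.24 to 3.25 in wild type. WT B was the brightest wild-type array and had the lowest Gapdh ratio of its group. It also stood apart in 4 pancreatic acinar genes, with a mean deviation of 1.06 from each gene's own mean, against -0.36 to -0.021 in the other 5 arrays. All 14 epithelial marker genes were above the signal filter, with Epcam at 13.23, 13.19 and 13.33 in the KO-labelled arrays and 13.18, 13.17 and 13.28 in wild type. Of the 11 T cell genes with a named probe set 9 were above it too, but so were 12437 of 18193 genes on the array. The 9 ranged from close to the bottom of the scale (Cd5, 4.68 to 5.89) to Itgae at 7.43 to 9.41. Passing the filter does not by itself show that T cells were present.

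limma called 0 of 12437 genes between the groups (0%), and no member of the set. Unadjusted p-values were under 0.05 for 490 genes. All 10 members had a lower mean in the KO-labelled arrays, with a median log2 difference of -0.37, against 0.021 over all genes tested and 46.8% of them below 0. On the signals as deposited 7 of the 8 GTPases turned to a difference above 0, and 4 did with arrays centred on their medians. Those scalings moved the median of all genes to 0.43 and 0.20. Relative to the median of all genes, all 10 members were lower after quantile normalization and on the deposited signals. On the latter some lay close to that median, such as Irgm1 at -0.021 (SE 0.28) and Igtp at -0.034 (SE 0.27). Median centring shifts each array as a whole, so it repeats these relative values and is no further check. The median of the members was 0.014 against WT B alone and -0.042 with the Gapdh ratio in the fit. In these arrays the groups overlapped for the 8 GTPases and were separate for the pair Ido1 and Cd274. That split is read from the contrast on which the genes were picked. For the pair, WT B lay close above KO C, at 8.85 against 8.66 for Ido1 and 6.97 against 6.69 for Cd274. Fewer cells of a type and less RNA per cell cannot be told apart in such bulk samples.

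**Figure D1:**
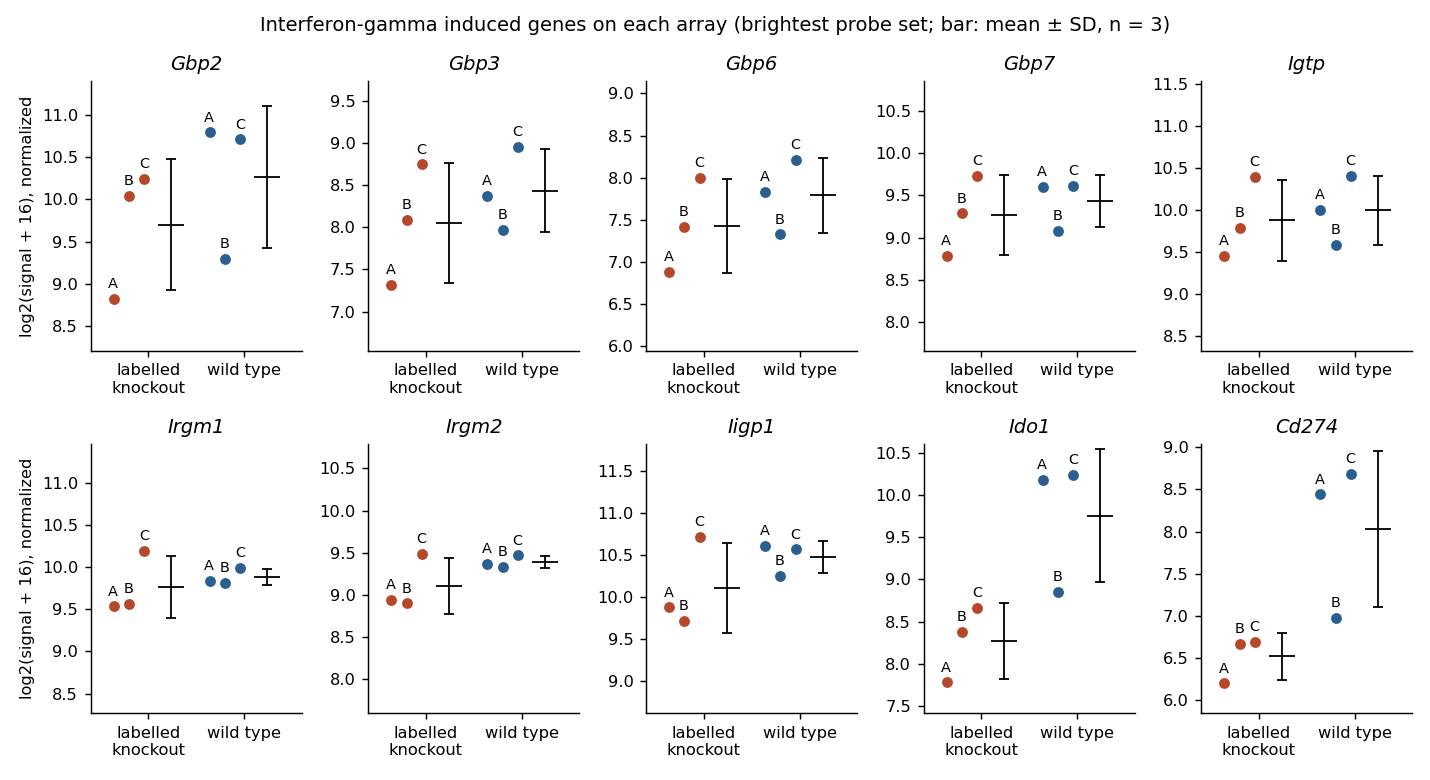
Normalized log2(signal + 16) of the brightest probe set of each gene, 1 point per array with its letter, the KO-labelled arrays to the left of wild type, and the mean with SD (n = 3) as a bar. All panels span the same height. The groups overlap for the 8 GTPases and are separate for Ido1 and Cd274.

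Ido1, the enzyme of the first step of tryptophan breakdown to kynurenine, had deposited signals of 263, 351 and 456 in KO A, KO B and KO C and 935, 492 and 772 in WT A, WT B and WT C. After normalization these became 7.78, 8.38 and 8.66 in the KO-labelled arrays and 10.18, 8.85 and 10.24 in wild type. Every KO-labelled array lay below every wild-type array on both scales, and WT B was the closest to them. The means were 8.27 ± 0.45 in the KO-labelled arrays and 9.76 ± 0.79 in wild type (SD, n = 3 each), a log2 difference of -1.49 (SE 0.39), or 2.80-fold lower.

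Cd274, the ligand of the T cell receptor PD-1, had deposited signals of 65.0, 96.7 and 104 in the KO-labelled arrays and 264, 113 and 258 in WT A, WT B and WT C. The normalized values were 6.20, 6.67 and 6.69 in the KO-labelled arrays and 8.44, 6.97 and 8.69 in wild type. The groups did not overlap, and WT B stood 0.28 above the highest KO-labelled array. The means were 6.52 ± 0.28 in the KO-labelled arrays and 8.03 ± 0.93 in wild type (SD, n = 3 each), a log2 difference of -1.51 (SE 0.42), or 2.86-fold lower.

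Both genes put the 6 arrays in 1 order, WT C, WT A and WT B above KO C, KO B and KO A. Among all genes tested 4.38% had groups that did not overlap with the lower values in the KO-labelled arrays, and 0.233% were in addition at least 2-fold lower, as these 2 genes were. These shares are the background, and nothing is read from them, because the genes were picked on this contrast. The size of both differences depended on WT A and WT C. Against WT B alone, Ido1 differed by -0.57 (SE 0.34) and Cd274 by -0.45 (SE 0.29). A fit that included the Gapdh ratio, which itself separates the groups, gave -0.85 (SE 0.48) for Ido1 and -0.65 (SE 0.45) for Cd274. Without WT B they were -1.94 and -2.04, and limma then called Cd274 among 6 genes.

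No partner of the pair was called, as no gene was, Ido1 and Cd274 included. Genes of tryptophan use, listed together with Ahr, Ahrr, Cyp1a1 and Cyp1b1, came to 13 besides Ido1, of which 5 were tested. Of the 5, 3 were lower and 2 higher, with a median of -0.0035. Ido2, Kmo, Kynu and Haao, which act beside or after Ido1, lay below the signal filter, and Tdo2, the liver-type enzyme of the same step, was at 0.25 (SE 0.23) close to the bottom of the scale. Tph1, which starts serotonin synthesis from tryptophan, was at -1.25 (SE 0.61) with overlapping groups, 6.31 to 7.06 in the KO-labelled arrays and 6.69 to 9.46 in wild type. A list of B7 family ligands, their receptors and the PD-L1 regulators Cmtm6 and Cmtm4 had 7 tested genes. Of the 7, 5 were lower and 2 higher, with a median of -0.036. On the deposited signals all 7 were above 0, while 5 lay below the median of all genes there. Pdcd1, which encodes PD-1, and Cd80 and Cd86, ligands of T cell co-receptors, were also below the filter. Pdcd1lg2, the second PD-1 ligand, was at 0.14 (SE 0.21), and Cmtm6, whose product stabilises PD-L1 protein, at -0.036 (SE 0.19).

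Gbp2, a guanylate-binding protein gene, had the widest spread of the GTPases. It read 8.81, 10.04 and 10.24 in KO A, KO B and KO C and 10.79, 9.29 and 10.71 in WT A, WT B and WT C. KO A and WT B were low and the other 4 arrays high, and the groups overlapped. The difference was -0.57 (SE 0.48), and the other Gbp2 probe set gave -0.65 (SE 0.44) with the same order of arrays. The brighter of the 2 carries a suffix (_x_at) that marks possible cross-hybridisation to related sequences.

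The other guanylate-binding protein genes followed with smaller differences. Gbp3 read 7.32, 8.09 and 8.75 in the KO-labelled arrays and 8.37, 7.97 and 8.95 in wild type, a difference of -0.38 (SE 0.38). Gbp6 differed by -0.36 (SE 0.33) on its brightest probe set and by -0.13 (SE 0.34) on the other. Gbp7 differed by -0.17 (SE 0.26) and -0.33 (SE 0.32). On all 3 genes KO C was the highest and KO A the lowest of their group, and WT B was the lowest of its group.

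On their brightest probe sets, Irgm1, Irgm2 and Iigp1 had SDs of 0.069 to 0.19 over the wild-type arrays. Those of the 4 guanylate-binding protein genes were larger (0.30 to 0.85), and Igtp at 0.41 lay among them. The contrast did not hold on the other probe sets, where Iigp1 had an SD of 0.37 and Gbp6 of 0.23. Irgm2, a member of the regulatory subfamily that keeps the effector GTPases inactive on the cell's own membranes, read 8.94, 8.90 and 9.49 in the KO-labelled arrays and 9.37, 9.33 and 9.47 in wild type. The 3 wild-type arrays lay within 0.13 of each other, and KO C was at their level while KO A and KO B were lower. The difference was -0.28 (SE 0.19). Irgm1, of the same subfamily, read 9.53, 9.57 and 10.19 in the KO-labelled arrays and 9.84, 9.81 and 9.99 in wild type. Here KO C was the highest of all 6 arrays, and the difference was -0.11 (SE 0.20).

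Igtp (Irgm3), the remaining regulatory GTPase, ran from 9.45 to 10.39 in the KO-labelled arrays and from 9.59 to 10.41 in wild type, a difference of -0.12 (SE 0.28). On the deposited signals its groups were separate the other way, at 918, 963 and 1557 in the KO-labelled arrays and 808, 836 and 876 in wild type, a scale on which the median of all genes was 0.43. Iigp1 (Irga6), an effector GTPase that coats parasite vacuoles, read 9.88, 9.72 and 10.72 in the KO-labelled arrays and 10.61, 10.26 and 10.57 in wild type. KO B and KO A were the lowest and KO C the highest, and the difference was -0.37 (SE 0.26). Its other probe set gave -0.60 (SE 0.31).

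**Figure D2:**
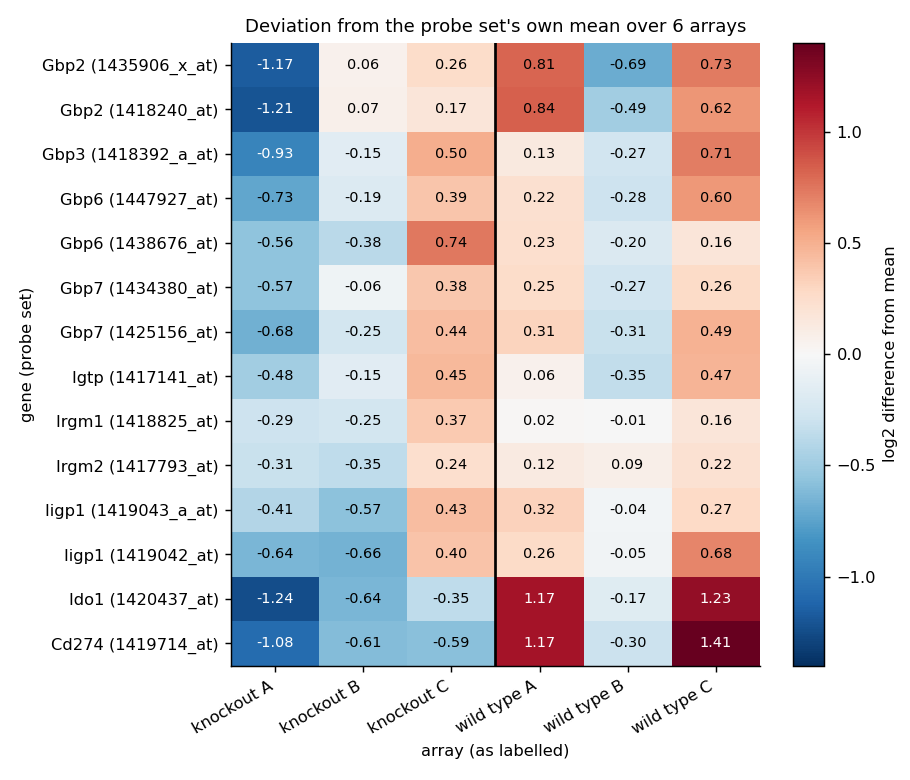
Deviation of each array from the probe set's own mean over the 6 arrays (log2, colour and number), for the 14 probe sets in rows and the arrays in columns, the KO-labelled arrays left of the black line and wild type right of it. KO C is above the mean for the GTPases and below it for Ido1 (-0.35) and Cd274 (-0.59), while WT A and WT C are highest for that pair.

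The arrays varied in a shared way over the set. Within the KO-labelled arrays, C was the highest for all 14 probe sets and A the lowest for 11. Within wild type, B was the lowest for all 14 and C the highest for 10. The mean deviation of the 8 GTPases was -0.61, -0.21 and 0.38 in KO A, KO B and KO C and 0.24, -0.23 and 0.43 in WT A, WT B and WT C. That of Ido1 and Cd274 was -1.16, -0.62 and -0.47 in the KO-labelled arrays and 1.17, -0.24 and 1.32 in wild type. KO C thus stood with WT A and WT C for the GTPases and with the other KO-labelled arrays for the pair. The SD of the GTPases among the KO-labelled arrays lay between the 80.7th and the 98.7th percentile of all genes tested, with Gbp2 at the upper end and Irgm2 at the lower. The 5 GTPases Gbp2, Gbp3, Gbp6, Gbp7 and Igtp turned above 0 against WT B alone (0.41, 0.078, 0.11, 0.19 and 0.29), and the same 5 did when the Gapdh ratio entered the fit (0.072, 0.085, 0.043, 0.021 and 0.25). Irgm1, Irgm2 and Iigp1 stayed below 0 in both.

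**Figure D3:**
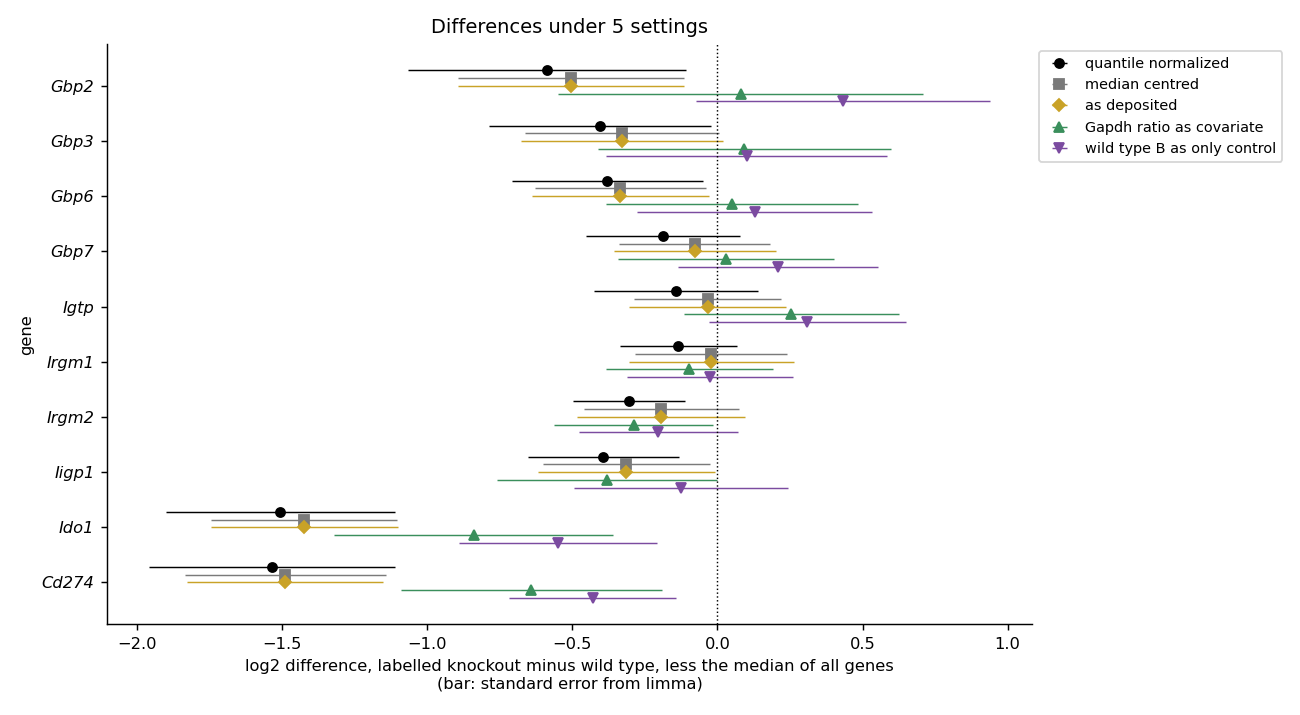
Difference in log2 signal, labelled knockout minus wild type, less the median of all genes, for each member under 5 settings, with limma's standard error as a bar. Ido1 and Cd274 stay below 0 throughout and shrink to -0.55 and -0.43 against WT B alone, while 5 GTPases move from below to above 0.

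The letters of the promoters are shown because these genes moved together between arrays. RefSeq promoters (GRCm38.p6) were found for 7 of the 10 members and not for Gbp6, Iigp1 and Ido1. The 250 bases before the start were searched on both strands for TTCNNNGAA, the gamma-activated site (GAS), and for GAAA, any 2 bases and GAAA again, an element bound by IRF1 and its relatives. The 2 patterns may overlap each other, and a match is a description of letters and not a site of binding. GAS letters were present in 3 of the 7 genes, against 8.13% of all 27025 genes in the table, and IRF letters in 6 of 7, against 3.46%. The members were listed as interferon-gamma induced genes, so nothing about these arrays is read from the shares. Gbp3 has a further promoter with neither kind of letters and counts by the other. All 3 genes with GAS letters, Gbp7, Igtp and Irgm2, also had IRF letters, a combination found in 0.4% of all genes. Cd274 held neither within its window, which lies inside the annotated gene.

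Igtp and Irgm2 neighbour each other on chromosome 11 with no protein-coding gene between them. Their windows, chr11:58199306-58199555 and chr11:58214727-58214976 on the plus strand, were 68.1% identical over the alignment, against 41.9% to 51.1% for the other 20 pairs. Capitals mark GAS and IRF letters, 5′ to 3′, ending at the last base before the start. In both genes the GAS letters come first and the IRF letters GAAACTGAAA follow, starting 34 bases upstream in Igtp and 64 in Irgm2. Irgm1, whose window is chr11:48871421-48871670 on the minus strand, has a pair of overlapping IRF matches.
Igtp: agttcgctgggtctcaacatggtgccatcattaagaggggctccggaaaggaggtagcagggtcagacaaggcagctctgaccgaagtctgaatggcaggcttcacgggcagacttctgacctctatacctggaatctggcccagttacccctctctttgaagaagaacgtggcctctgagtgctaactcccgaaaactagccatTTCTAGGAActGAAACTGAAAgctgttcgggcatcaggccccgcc
Irgm2: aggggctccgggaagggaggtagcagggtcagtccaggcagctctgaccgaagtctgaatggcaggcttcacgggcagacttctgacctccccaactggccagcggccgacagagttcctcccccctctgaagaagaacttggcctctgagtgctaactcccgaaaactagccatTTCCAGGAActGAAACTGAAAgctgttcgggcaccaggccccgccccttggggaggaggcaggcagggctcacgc
Irgm1: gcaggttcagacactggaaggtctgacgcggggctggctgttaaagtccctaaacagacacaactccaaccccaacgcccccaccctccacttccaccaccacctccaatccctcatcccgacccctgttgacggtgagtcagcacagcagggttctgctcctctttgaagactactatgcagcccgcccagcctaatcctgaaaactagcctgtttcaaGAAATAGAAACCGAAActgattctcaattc

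Gbp2 and Gbp7 lie in the guanylate-binding protein cluster on chromosome 3, and their windows are chr3:142620413-142620662 and chr3:142530086-142530335 on the plus strand. Both carry the IRF letters in reverse, 59 and 53 bases upstream, and Gbp7 has a pair of GAS matches further out. The Cd274 window, chr19:29367188-29367437 on the plus strand, is also given and has no capitals. It lies inside the annotated gene (29362107 to 29388095), so the bases before the first base of the gene were not searched. Gbp2 with its IRF letters and Gbp7 with both kinds differed by -0.57 (SE 0.48) and -0.17 (SE 0.26). Whether the differences follow the promoter letters was not tested.
Gbp2: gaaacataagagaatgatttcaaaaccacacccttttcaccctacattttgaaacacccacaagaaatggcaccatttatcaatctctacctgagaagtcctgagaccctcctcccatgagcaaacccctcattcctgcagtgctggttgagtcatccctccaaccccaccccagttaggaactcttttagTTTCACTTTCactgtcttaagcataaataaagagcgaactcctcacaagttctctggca
Gbp7: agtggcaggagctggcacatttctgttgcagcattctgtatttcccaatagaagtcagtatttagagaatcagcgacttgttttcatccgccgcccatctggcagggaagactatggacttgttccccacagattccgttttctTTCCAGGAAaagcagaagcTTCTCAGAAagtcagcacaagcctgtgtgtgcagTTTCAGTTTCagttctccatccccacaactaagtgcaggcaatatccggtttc
Cd274: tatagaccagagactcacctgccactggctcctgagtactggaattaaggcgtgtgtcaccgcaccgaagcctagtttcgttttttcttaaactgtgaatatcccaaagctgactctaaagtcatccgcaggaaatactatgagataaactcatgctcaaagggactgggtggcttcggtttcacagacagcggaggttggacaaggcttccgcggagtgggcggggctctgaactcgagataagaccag

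The upstream genes of the pathway gave small differences. Ifng itself was below the signal filter, at 4.24 to 5.56 over the 6 arrays. Of 17 tested genes of the ligand, receptor and signalling list 15 were lower and 2 higher in the KO-labelled arrays, with a median of -0.25 and 0 called. On the deposited signals 2 of the 17 were below 0, and 13 were below the median of all genes there. Against WT B alone 6 were lower and 11 higher. The receptor genes Ifngr1 and Ifngr2 were at -0.10 (SE 0.22) and -0.075 (SE 0.30), and the kinase genes Jak1 and Jak2 at -0.11 (SE 0.25) and -0.32 (SE 0.18). Irf1 read 10.66, 10.99 and 11.30 in the KO-labelled arrays and 11.47, 10.85 and 11.82 in wild type, a difference of -0.39 (SE 0.26) with overlapping groups.

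Among the other factors, Irf2, which competes with Irf1, was at -0.29, Irf9 and Stat2, partners in type I interferon signalling, at -0.16 and -0.36, and Stat3 at -0.30. Irf8 was higher at 0.21 (SE 0.24) and Cebpb at 0.0067 (SE 0.17). Of the inhibitors of the pathway, Socs1 read 5.05, 5.06 and 5.11 in the KO-labelled arrays and 5.63, 5.39 and 5.30 in wild type, the only gene of this list with groups that did not overlap. Its values lay close to the bottom of the scale. Socs3 was at -0.015, the phosphatase genes Ptpn2 and Ptpn6 at -0.25 and -0.46, Pias1 at -0.17 and Usp18, which dampens type I interferon signalling, at -0.76 (SE 0.41).

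Of the inducers of Ifng 6 genes were tested, 4 lower and 2 higher, with a median of -0.39 and 0 called. With the Gapdh ratio in the fit 1 was lower and 5 higher, and against WT B alone 3 and 3. Stat4, which carries the interleukin-12 signal in lymphocytes, was at -0.84 (SE 0.25), with separate groups near the bottom of the scale.

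The remaining induced GTPases and other targets were mixed. Of 6 further GTPases tested 5 were lower, with a median of -0.28 and 0 called. On the deposited signals 4 of the 6 were above 0, while 5 lay below the median of all genes there. Against WT B alone 3 were above 0. Ifi47, an immunity-related GTPase, was at -0.30 (SE 0.21), Gm4951 at -0.27 (SE 0.39), Gbp2b at -0.17 (SE 0.26) and Gbp8 at 0.27 (SE 0.60). Mx1 and Mx2, dynamin-like GTPases of the type I response, were at -0.85 (SE 0.40) and -0.62 (SE 0.59), and Irgc1 was below the filter. Of 21 other classic targets 13 were lower and 8 higher, with a median of -0.04 and 0 called. On the deposited signals 19 of the 21 were above 0, and 17 were with arrays centred on their medians. Below the median of all genes lay 14 of the 21, both after quantile normalization and on the deposited signals. The direction turned with the Gapdh ratio in the fit, with 18 higher, and against WT B alone, with 19 higher (median 0.25).

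The chemokine gene Cxcl9 was at -0.014 (SE 0.32) and Cxcl10 at -0.14 (SE 0.29). The immunoproteasome genes Psmb8, Psmb9 and Psmb10 were at 0.23, 0.37 and 0.10. Psmb8 had separate groups, 10.93 to 11.28 in the KO-labelled arrays and 10.71 to 10.91 in wild type. Of all genes tested, 4.68% had separate groups in that direction. The peptide transporter gene Tap1 was at -0.20, the ubiquitin-like modifier gene Ubd at -0.076 and the lysosomal thiol reductase gene Ifi30 at 0.35. Nlrc5, the activator of MHC class I genes, was at -0.60 (SE 0.46), and Ciita, the activator of MHC class II genes, at 0.18 (SE 0.32). All 7 tested MHC class II genes were higher, with a median of 0.14, 0 called and overlapping groups for each. They stayed above 0 under all 3 scalings, while 4 of the 7 were above the median of all genes on the deposited signals. H2-Aa, H2-Ab1, H2-Eb1 and Cd74 were at 0.13, 0.14, 0.26 and 0.26.

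**Figure D4:**
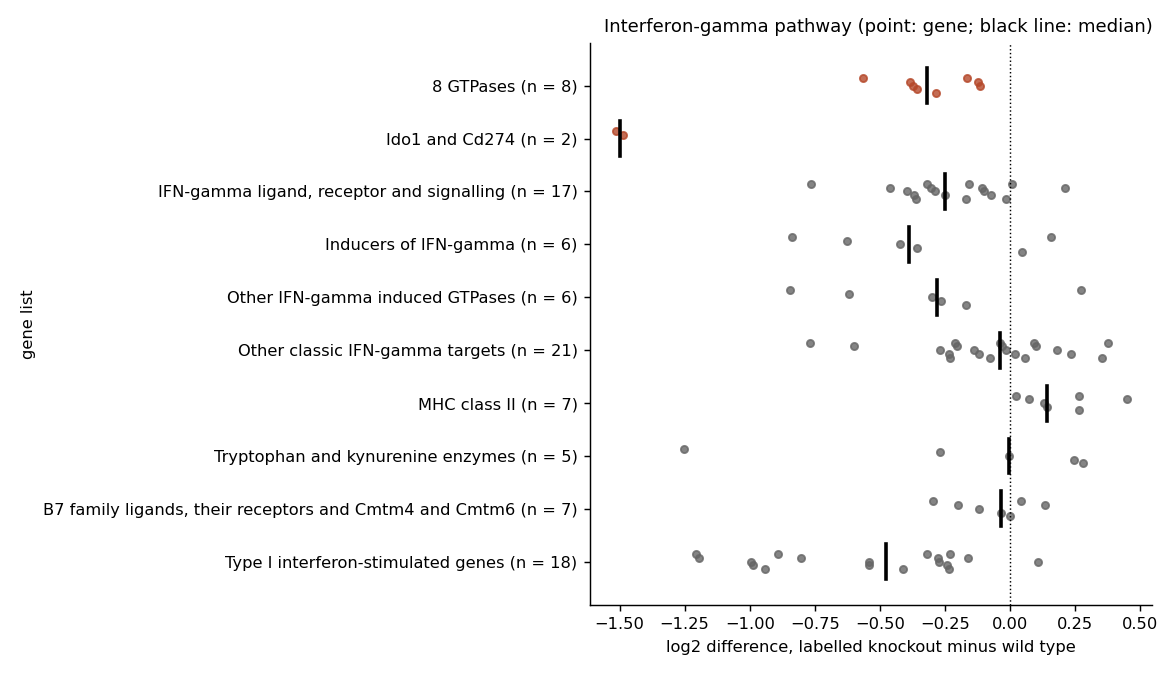
Log2 difference, labelled knockout minus wild type, of every tested gene of each list (points) with the list's median (black line), the members in red at the top. Ido1 and Cd274 lie at -1.49 and -1.51, beyond every other gene shown, while MHC class II lies above 0 (median 0.14).

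Type I interferon-stimulated genes were lower in 17 of 18 cases, at a median of -0.48 with 0 called. Ifit1 was at -1.20 (SE 0.41), Oas2 at -1.21 (SE 0.38) and Irf7 at -0.99 (SE 0.37). On the deposited signals 9 were lower and 9 higher (median 0.013), while 17 lay below the median of all genes there. With arrays centred on their medians 12 were lower. Against WT B alone the median was -0.062, and 11 of 18 were lower. Isg15 was not analysed here.

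Lymphocyte genes differed with the choice of control arrays. Against all of wild type, all 9 tested T cell genes were below 0, with a median of -0.45, and so were all 7 natural killer and innate lymphoid genes, with a median of -0.53. None was called. Against WT B alone 8 of the 9 and 6 of the 7 were higher, with medians of 0.29 and 0.35, and as many were higher with the Gapdh ratio in the fit. The summed linear signal of 9 T cell genes was 609 to 1179 in the KO-labelled arrays and 669 to 2271 in wild type, lowest for wild type in B, and Cd4 and Cd2 were below the filter. For 7 natural killer and innate lymphoid genes the sum was 1258 to 3568 in the KO-labelled arrays and 1493 to 9674 in wild type. These sums overlapped between the groups, and WT C was the highest array in both. The macrophage and dendritic cell list had 4 of 8 genes below 0 and a median of -0.037, and its sums were 1392 to 1898 in the KO-labelled arrays and 1475 to 1652 in wild type. The 14 epithelial genes summed to between 102900 and 118200 in the KO-labelled arrays and between 105600 and 119000 in wild type. B and plasma cell genes were lower in 4 of 5 cases (median -0.012) and higher in 5 of 5 against WT B alone. All 3 neutrophil genes had a higher mean (median 0.51), and KO B alone stood high in them, with a mean deviation of 1.47, against -0.018 in KO A, -0.74 in KO C and -0.47 to 0.042 in wild type. Endothelial and stromal genes were lower in 1 of 2 and 4 of 7 (medians of -0.031 and -0.065). Pancreatic acinar genes were lower in 3 of 4 (median -0.36), with WT B the array that stood high, and Prss2 read 4.97 to 5.05 in the KO-labelled arrays and 5.04, 7.67 and 5.23 in WT A, WT B and WT C. The part of lymphocyte content, acinar RNA and array brightness in the differences of Ido1, Cd274 and the GTPases was not tested.

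**Figure D5:**
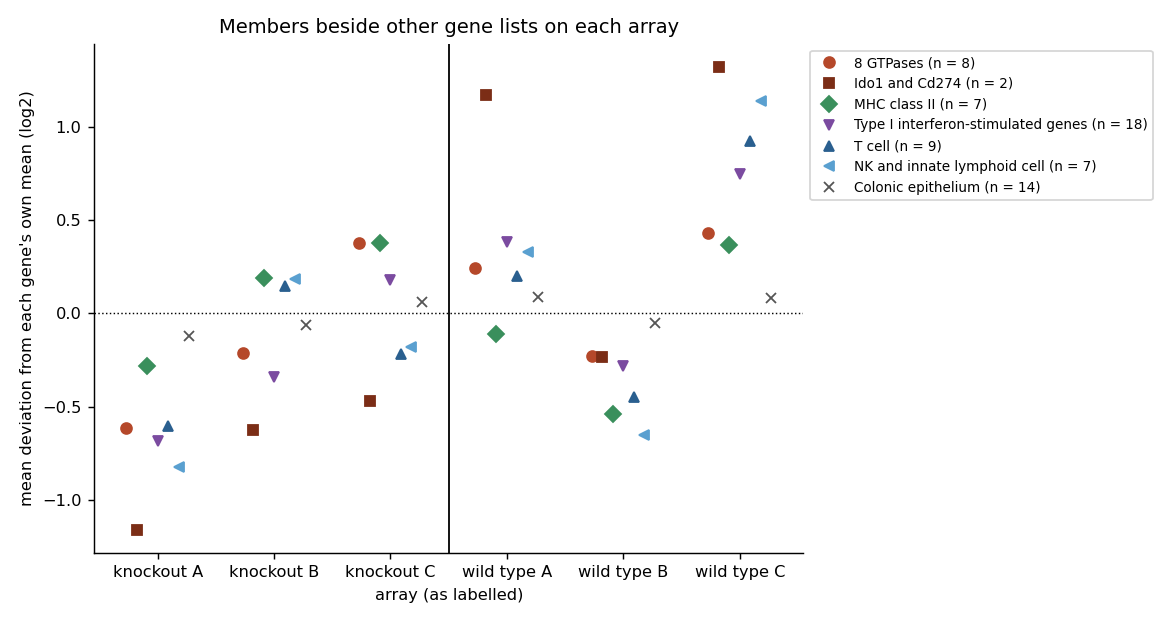
Mean deviation of the genes of each list from their own mean over the 6 arrays (log2), by array, the KO-labelled arrays left of the line and wild type right of it. Ido1 and Cd274 have the widest range (-1.16 to 1.32), T cell and natural killer genes peak in WT C (0.92 and 1.14), and epithelial genes stay between -0.12 and 0.089.

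Genes outside the set with the most similar profile were found by the root mean square distance between centred values over the 6 arrays, taking the mean profile of the 10 members as the standard. The 8 nearest were Dhrs11, A4galt, Oas1a, Herc6, Ceacam20, Trim5, Zfp217 and Il13ra1, at distances of 0.057 to 0.11. All 8 lay nearer to that mean than any member did, since the members ran from 0.12 for Gbp6 to 0.52 for Ido1 and 0.59 for Cd274. Dhrs11, the nearest, read 7.83, 8.13 and 8.71 in the KO-labelled arrays and 8.80, 8.26 and 9.11 in wild type.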

How the data were processed

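RNA from mouse colonic mucosa was measured on 6 Affymetrix 3' arrays. The authors deposited linear intensities, 1 for each probe set on each array, made with MAS5 per the submitters' processing notes. No version, target or scaling is stated in the sources used here. The trimmed means differed between arrays, so log2(signal + 16) was quantile normalized. Probe sets under the 40th percentile were dropped (a signal of about 18.4), which left 27061, and 64 control probe sets were left out. Symbols came from the platform annotation, with 1 symbol for 34945 probe sets, several for 932 and none for 9160. The brightest probe set of each gene was kept. The test was limma 3.58.1 (R 4.3.3; lmFit, then eBayes with trend), adjusted by Benjamini-Hochberg over all genes at 0.05. SEs are those of this fit, and Mapk14 was also given an exact permutation test. Precision is limited by the number of arrays. The steps were tested on simulated data.

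The members and lists were chosen with earlier results of these data known. Named were the members, Mapk14, all measured genes of the signalling and GTPase lists, fixed genes of the other lists and the 8 nearest profiles. Cmtm6, Tph1, Stat4, Prss2, Epcam, Cd4 and Cd2 were added after their values were seen. The planned description of proteins was not made. Alternatives were other scalings, pseudocounts, filters, probe set rules, eBayes settings, array weights, a replicate block by letter, the Gapdh ratio in the fit, WT B alone as control and each array left out.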

Additional observations from a re-analysis of the deposited data

How the results depend on the processing

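The median log2 difference of the 10 members (-0.37) turned above 0 in 2 of 20 alternatives, to 0.11 on the signals as deposited and to 0.014 against WT B alone, and shrank to -0.042 with the Gapdh ratio in the fit and -0.12 with median centring. The SD between arrays was 0.46. Leaving out 1 array gave -0.66 (without KO C) to -0.10 (without KO A). The difference of Ido1 ran from -1.94 to -0.57 and that of Cd274 from -2.04 to -0.45, below 0 in all 20, and every GTPase turned in at least 1. The count of genes called, 0 with all arrays, was 1 (Mt1) on the signals as deposited, with median centring, with a pseudocount of 64 and against WT B alone. It was 29, among them Ido1 and Cd274, with array weights estimated gene by gene, since the estimate over all genes together did not converge. Leaving out each array gave 0 to 6 calls, with 6 without WT B and 1 without WT C. With the replicate block 3 genes were called (Mt1, Pla2g4c and Pnliprp2), no member among them. The letters were not taken to pair the samples in the main fit. The correlations of deviations between arrays of 1 letter were -0.042, -0.11 and 0.45, and not every array correlated best with its own letter. With 3 arrays in each group these values cannot settle whether the samples are pairs. Mapk14 stayed above 0 and uncalled in all 20. The number of arrays limits the precision.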
